A study of Mus musculus with 24 samples.

Results

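The 9 genes described here are secreted signals of the TGF-beta family and 2 proteins that bind such signals outside the cell, followed in young and aged mouse organs. They are the TGF-beta ligands Tgfb1 and Tgfb2, the activin subunit gene Inhba, the bone morphogenetic proteins (BMPs) Bmp2, Bmp4, Bmp6 and Bmp7, and the BMP antagonists Grem1 (gremlin 1) and Nog (noggin). They were taken by name from the 22911 mouse gene symbols that the array's RefSeq accessions matched. Grem1 entered the group because its difference between ages in kidney was already known to be among the largest. The genes were thus chosen by values of the kidney contrast, aged against young, so every kidney value of the 9 genes is given as a description, without a test.

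The RNA came from the kidney, liver, lung and white fat (white adipose tissue, WAT) of male C57BL/6J mice aged 10 weeks (10W, young) or 90 weeks (90W, aged), with 3 mice per tissue and age and 24 one-colour Agilent arrays in all. The aged livers carry the replicate numbers 1, 2 and 4. Each tissue was hybridised on a slide of its own, so a difference between tissues and one between slides cannot be told apart, whereas both ages of a tissue shared a slide. Whether 1 mouse gave several tissues is not stated, and whole organs were homogenised, so more cells of a type and more RNA per cell cannot be told apart.

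Ligands of this family are dimers that bring type I and type II serine/threonine kinase receptors together at the cell surface. TGF-beta and activin receptors act mainly through Smad2 and Smad3, and BMP receptors through Smad1, Smad5 and Smad9. TGF-beta is stored in the matrix as a latent complex and is a well-known inducer of matrix genes in fibrosis. BMP7 is produced at high levels by kidney tubules and opposes many TGF-beta responses there, and gremlin 1 and noggin bind BMPs and keep them from their receptors.

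Values are log2 signals minus the 75th percentile of the array, so 0 is the 75th percentile and 1 unit is a 2-fold step. A gene was tested in a tissue if its brightest probe stood well above background in 3 or more of the 6 mice. A gene is called where its adjusted p in limma, with Benjamini-Hochberg adjustment over all genes tested in that tissue, was under 0.05. Between 58.6% and 71.1% of the probes were well above background on each array, and the 75th percentile of the raw signal ran from 259 to 956. The marker genes of hepatocytes, lung epithelium, kidney tubules and adipocytes were highest in the labelled organ, and no array was left out. A pair of samples stood apart from their group. Aged lung 1 had hepatocyte markers summing to 126 on the linear scale, against 2.13 to 12.3 in the other lungs, and young WAT 1 had kidney tubule markers summing to 4.67, against 0.651 to 1.08 in the other WAT samples.

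Promoter windows were at hand for 6 of the 9 genes (none for Nog, Bmp2 and Bmp7), from RefSeq on build GRCm38.p6. The windows of Grem1, Inhba and Tgfb2 are shown because these 3 genes had the largest kidney differences of the 9. Each is the 250 bases before the listed transcript start, written 5′ to 3′ on the gene's strand. Capitals mark CAGAC (the SMAD-binding box), GGCGCC (a GC-rich motif of BMP-responsive SMADs), TGANTCA (the AP-1 site), TATAAA (the TATA box) and GTCTAGAC (the palindromic SMAD box), each searched on both strands.
Grem1 promoter, chr2:113758649-113758898, minus strand: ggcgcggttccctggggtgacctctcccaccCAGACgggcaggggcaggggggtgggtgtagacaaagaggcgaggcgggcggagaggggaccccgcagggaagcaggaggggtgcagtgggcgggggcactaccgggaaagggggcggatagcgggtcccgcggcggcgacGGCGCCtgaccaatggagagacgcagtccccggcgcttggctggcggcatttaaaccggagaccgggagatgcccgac
Inhba promoter, chr13:16011601-16011850, plus strand: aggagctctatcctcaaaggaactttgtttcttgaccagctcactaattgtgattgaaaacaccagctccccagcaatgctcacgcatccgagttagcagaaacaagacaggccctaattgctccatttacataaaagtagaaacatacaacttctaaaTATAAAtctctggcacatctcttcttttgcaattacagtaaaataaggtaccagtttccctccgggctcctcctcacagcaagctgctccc
Tgfb2 promoter, chr1:186705990-186706239, minus strand: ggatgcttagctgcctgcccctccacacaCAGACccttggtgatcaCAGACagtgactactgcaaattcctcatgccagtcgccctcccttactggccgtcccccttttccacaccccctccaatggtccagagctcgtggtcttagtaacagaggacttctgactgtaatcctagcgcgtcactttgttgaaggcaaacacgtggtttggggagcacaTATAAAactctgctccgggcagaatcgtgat
The Grem1 window is 72.0% G or C and holds 1 CAGAC and 1 GGCGCC. The Tgfb2 window holds 2 CAGAC and 1 TATAAA, and the Inhba window, at 43.2% G or C, holds 1 TATAAA and no CAGAC on either strand. No 2 matches overlap in these windows. Of 32841 windows of the same length, 42.2% hold CAGAC, 9.59% GGCGCC, 12.4% TATAAA, 6.75% TGANTCA and 0.167% GTCTAGAC; a match is a string of letters and not a tested site. The Inhba and Tgfb2 windows start inside the RefSeq span of the gene, which begins further upstream. Of the windows not shown, that of Bmp6 has 1 CAGAC, and those of Bmp4 and Tgfb1 hold none of the 5 motifs.

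In kidney, Grem1 did not reach well above background in the 3 young mice and did so in every aged mouse. Its values were -7.05, -7.38 and -7.41 in the young kidneys and 1.52, 1.21 and 0.93 in the aged kidneys. The groups are far apart and the 3 aged kidneys lie close together. The young kidneys were bounded by the dimmest probes that were well above background on their arrays. On this scale the aged level was at least 101-fold higher. The log2 signals differed by 8.50, but the young values are background signals, so that difference is not a measure of size. With normexp the log2 signals differed by 5.29, which is less than 101-fold. The size thus depends on the background correction.

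The other kidney values went in both directions. Inhba, whose product dimerises into activin A, stood at -5.29, -5.66 and -4.96 in young and at -0.92, -1.32 and -1.60 in aged kidneys, a difference of 4.03 (SE 0.24). One of the young kidneys was not well above background, and with normexp the difference was 2.32. Tgfb2 stood at -1.98, -2.10 and -2.74 in young and at 1.14, 0.91 and 0.53 in aged kidneys, a difference of 3.13 (SE 0.25).
Its dimmer second probe gave 2.78. Tgfb1, the main TGF-beta isoform, was at -1.26, -1.30 and -1.12 in young and at 1.05, 0.85 and 0.38 in aged kidneys, a difference of 1.98 (SE 0.18), with 1.95 from its second probe. Bmp2 differed by 1.13 (SE 0.24). None of these 4 genes had an aged kidney within the range of the young ones.
Bmp7 was lower in every aged kidney: 3.16, 3.19 and 3.33 in young mice against 1.98, 2.18 and 2.52 in aged mice, a difference of -1.0 (SE 0.15). Nog, at -0.44 (SE 0.12), was also lower in every aged kidney. Bmp4 differed by 0.15 (SE 0.08) and Bmp6 by 0.20 (SE 0.11), and the ages overlapped for Bmp6. Thus 6 genes were above and 2 below the young range in all 3 aged kidneys, while 70.7% of all genes tested in kidney had no overlap between ages, 23.1% with every aged mouse higher and 47.6% with every aged mouse lower. Because the genes were chosen with this contrast in view, nothing is read from that count.

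The scale mattered for the small kidney differences. The median difference over all genes tested in kidney was -0.23, and scaling to the spike-in controls moved it to 0.17. On that scale Nog differed by -0.03, Bmp7 by -0.59, Bmp4 by 0.56 and Grem1 by 8.90. Cell type markers moved with the kidney values as well. All 5 fibroblast markers were higher in aged kidneys (summed linear level 7.73 to 8.99 in young and 25.4 to 31.4 in aged mice), as were all 5 macrophage markers (20.7 to 23.8 against 73.2 to 109.8), whereas 6 of 7 tubule markers were lower (836 to 973 against 300.3 to 545). Each of these markers was above background in kidney, and their part in the kidney values of the 9 genes was not tested. The raw 75th percentile was also higher in aged kidneys (788 to 862) than in young ones (460.5 to 618), and its part was not tested either.

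**Figure D1:**
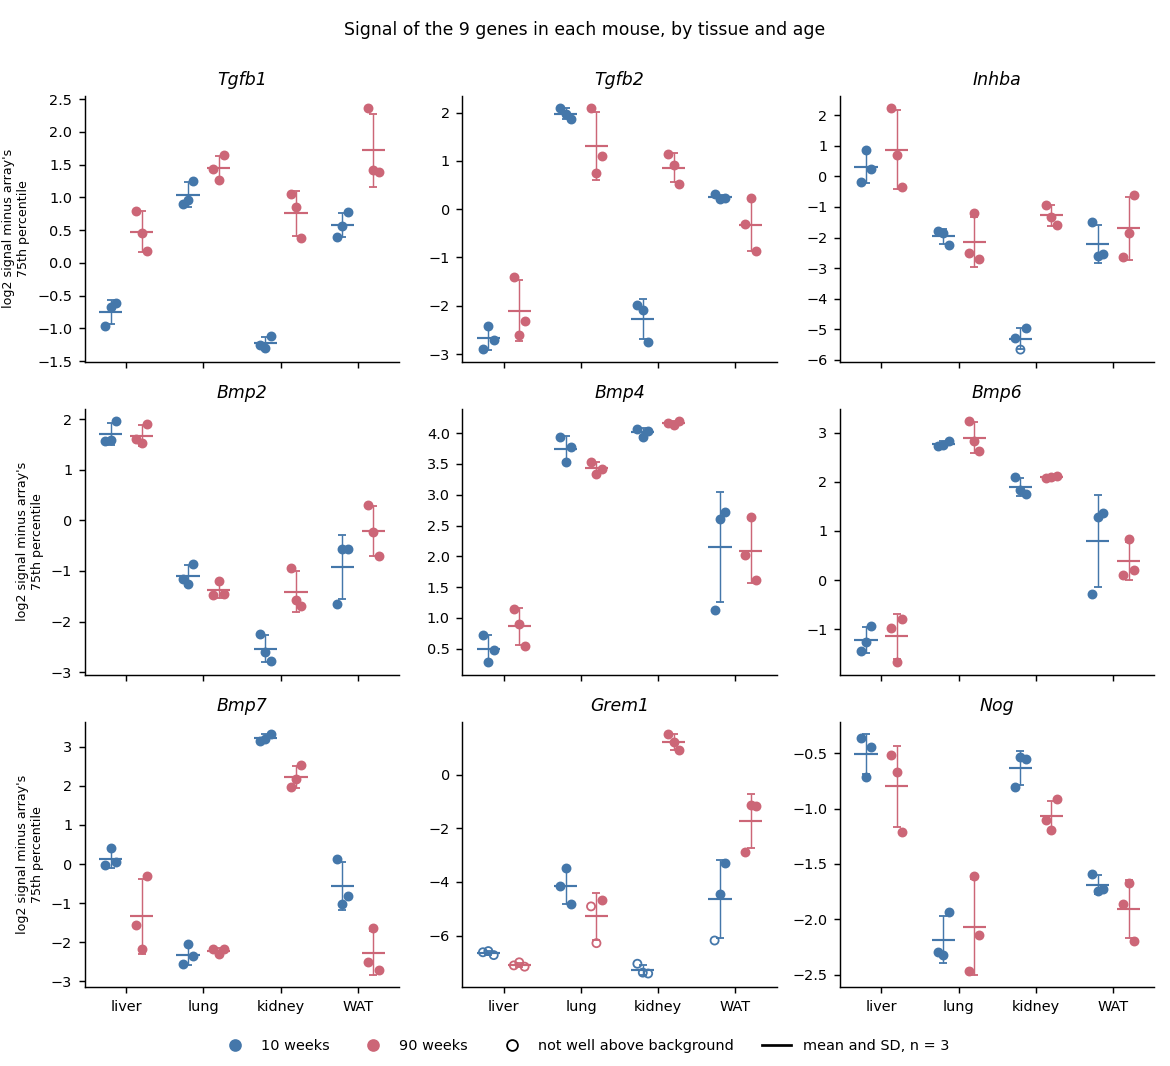
Log2 signal minus the array's 75th percentile (vertical axis) of each of the 9 genes in every mouse, by tissue and age, with the mean and SD of 3 mice; open circles are arrays where the probe was not well above background. Grem1 runs from about the lowest values of its panel in young kidneys (-7.41 to -7.05) to its highest in aged kidneys (0.93 to 1.52), and Bmp7 lies below the young range in every aged liver, kidney and WAT sample, while the ages overlap in lung.

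In liver, 8 of the 9 genes were tested, because Grem1 was not well above background on any of the 6 arrays. Tgfb1 was higher in aged livers and Bmp7 lower, so 2 of 8 were called, while 27.5% of all 27908 genes tested in liver were called (10.5% higher and 17% lower). Tgfb1 was at -0.96, -0.67 and -0.61 in young and at 0.80, 0.46 and 0.18 in aged livers, with no overlap. The rise was 1.23 (SE 0.21, adjusted p = 0.00989) and it was called in 14 of 15 alternative settings.
Bmp7 was at -0.04, 0.41 and 0.05 in young livers and at -1.56, -2.17 and -0.29 in aged livers. Aged liver 4 lay close to the young range and the other aged livers well below it. The fall was -1.48 (SE 0.45, adjusted p = 0.049). It was called in only 5 of 15 alternatives: without aged liver 2 it was -1.07 (adjusted p = 0.0955), and leaving out aged liver 1 or any 1 young liver also ended the call. The ages did not overlap for these 2 genes alone, against 49.9% of all genes tested in liver (16.8% with every aged mouse higher and 33.1% with every aged mouse lower).

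The other liver values did not pass the test. Inhba spread widely among aged livers, from -0.34 to 2.23, against -0.18 to 0.86 in young livers, and differed by 0.56 (SE 0.62, adjusted p = 0.516). Tgfb2 differed by 0.57 (95% interval -0.19 to 1.33) and Bmp4 by 0.36 (-0.14 to 0.87). Bmp2 and Bmp6, which liver endothelial cells make as regulators of iron balance, differed by -0.03 (-0.48 to 0.42) and 0.07 (-0.57 to 0.71). Nog differed by -0.29 (-0.82 to 0.24). All 5 macrophage markers were higher in aged livers (summed level 39.2 to 55.4 in young and 177 to 218 in aged mice) and 3 of the 4 fibroblast markers tested of 5 (summed level 49.4 to 66.1 against 123 to 149). The raw 75th percentile was 340 to 448 in aged and 259 to 307 in young livers. The part of either in the rise of Tgfb1 was not tested.

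In lung, none of the 9 genes was called by limma, where 5.61% of all 30328 genes tested were (2.72% higher and 2.89% lower). At an unadjusted p under 0.05 there was 1, Tgfb1, and the methods' t-test called 0 after adjustment. Tgfb1 was at 0.90, 0.96 and 1.26 in young and at 1.43, 1.27 and 1.64 in aged lungs, so that every aged lung was above the young range by a small margin, and 35.8% of all genes tested in lung had no overlap between ages (11.6% with every aged mouse higher and 24.2% lower). The difference was 0.41 (SE 0.15, adjusted p = 0.15).
Tgfb2 was at 2.09, 1.98 and 1.87 in young lungs and at 2.10, 0.75 and 1.1 in aged lungs. Aged lung 1 was thus within the young range and the other aged lungs below it. The difference was -0.67 (SE 0.34, adjusted p = 0.267), and without aged lung 1 it was -1.06 (adjusted p = 0.033). Grem1 was well above background in all 3 young lungs and in 1 of 3 aged lungs. Its values were -4.15, -3.46 and -4.82 in young and -4.91, -6.28 and -4.67 in aged lungs, which overlap, and the difference was -1.14 (95% interval -2.43 to 0.15, adjusted p = 0.226). Aged lung 2, the lowest for Grem1, also had the lowest 75th percentile of the raw signal among lung arrays (560 against 844 to 956), and the part of signal strength was not tested. The remaining 6 genes differed by between -0.32 (Bmp4) and 0.13 (Bmp6), all with overlapping ages.

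In WAT, none of the 9 genes was called by limma either, where 2.59% of all 30063 genes tested were (2.01% higher and 0.579% lower). At an unadjusted p under 0.05 there were 3, Grem1, Tgfb1 and Bmp7, and the same 3 had no overlap between ages, as did 28.8% of all genes tested in WAT (13.7% with every aged mouse higher and 15% lower). The methods' t-test called 0 of the 9. Over all genes tested in WAT it called 1 higher and 0 lower, so its 0 says nothing of these genes. Grem1 was at -6.18, -4.44 and -3.30 in young WAT, where mouse 1 was not well above background, and at -2.87, -1.14 and -1.17 in aged WAT. The difference was 2.91 (SE 0.83, 95% interval 0.89 to 4.94, adjusted p = 0.139). Bmp7 was at 0.13, -1.02 and -0.82 in young and at -2.51, -1.63 and -2.70 in aged WAT. Its difference was -1.71 (SE 0.42, adjusted p = 0.0996).
Tgfb1 was at 0.40, 0.56 and 0.78 in young and at 2.37, 1.42 and 1.38 in aged WAT, a difference of 1.14 (SE 0.31, adjusted p = 0.124). Its second probe gave 1.22. When all 24 arrays shared 1 estimate of the spread, all 3 were called, with adjusted p-values of 0.0014 (Grem1), 0.00299 (Bmp7) and 0.00185 (Tgfb1). That fit called far more genes in WAT: 3263 higher and 3127 lower of 30063, against 605 higher and 174 lower as reported. For Grem1 its spread also takes in liver and young kidney, which were not above background.
Young WAT 1 stood apart from the other young WAT samples for several of the genes: Bmp4 was 1.12 there against 2.60 and 2.73, Bmp6 -0.29 against 1.28 and 1.37, and Bmp2 -1.66 against -0.57 and -0.56. In the same sample the 3 mesothelial markers summed to 2.06 against 50.5 and 25.6, and the 5 fibroblast markers to 129.7 against 316 and 261. Without it, the WAT differences were 2.14 for Grem1, -1.36 for Bmp7 and 1.05 for Tgfb1. Macrophage markers summed to 39.0 to 121 in young and 231 to 518 in aged WAT (2 of 5 called), and all 4 B cell markers were called higher (0.462 to 1.37 against 6.37 to 11.2). Their part in these values was not tested. Bmp4, Bmp6, Bmp2, Tgfb2, Inhba and Nog differed by between -0.57 (Tgfb2) and 0.72 (Bmp2) in WAT, with overlapping ages.

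**Figure D2:**
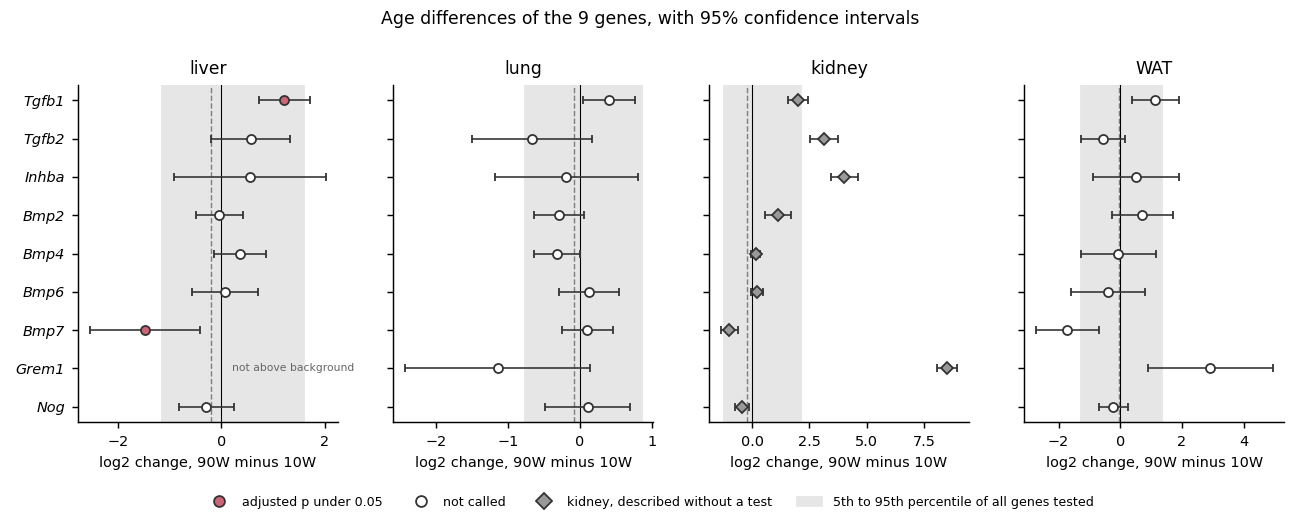
Log2 difference between ages (horizontal axis, 90W minus 10W, a scale of its own in each panel) of the 9 genes in 4 tissues, with 95% confidence intervals from limma; the grey band spans the 5th to 95th percentile of all genes tested and the dashed line is their median. Filled circles mark the 2 calls, Tgfb1 (1.23) and Bmp7 (-1.48) in liver, and grey diamonds the kidney values, given without a test.

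The age differences were compared between liver, lung and WAT in 1 fit over all arrays. Grem1 had the clearest difference between tissues: its age effect in lung minus that in WAT was -4.05 (SE 0.81, adjusted p = 0.0095). It was called in all 23 alternatives, with values from -4.72 to -2.36. That fit shares 1 spread over all groups. For Grem1 the SD was 0.08 in young and in aged liver and 0.20 in young kidney, which were not above background. In lung and WAT it ran from 0.68 to 1.45, so the SE and adjusted p rest in part on background groups. Grem1 was well above background in 1 of 3 aged lungs. The summed fibroblast markers were at 64.6 to 86.3 in young and 34.8 to 48.1 in aged lungs, with 1 of 5 called lower. In WAT they were at 129.7 (young WAT 1) to 316 in young and 302 to 349.9 in aged mice. The WAT sums overlap between ages, and 0 of the 5 markers were called. Their part in the Grem1 values was not tested. Grem1 was the only call among the 9 genes in that contrast, where 3.25% of all genes were called. Between liver and lung 1 of 8 genes was called, against 16.3% of all genes: the age effect of Bmp7 differed by -1.59 (SE 0.52, adjusted p = 0.0444). That call held in 10 of 23 alternatives, and the values ran from -2.11 to -1.17. Between liver and WAT limma called 0 of 8, against 18.5% of all genes, and 1 (Tgfb2) had an unadjusted p under 0.05. The age effect of Tgfb1 differed between liver and WAT by 0.08 (SE 0.33, adjusted p = 0.885).

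Levels of the same probe across the 8 groups, with the reserve that tissue and slide cannot be told apart, gave each gene its own order. Grem1 was highest in aged kidney (1.22 ± 0.30, SD, n = 3), followed by aged WAT (-1.73 ± 0.99), and these groups did not overlap. Young lung, young WAT and aged lung overlapped in turn below them, and liver and young kidney were not above background. Bmp7 was highest in young kidney (3.23 ± 0.10), then aged kidney (2.23 ± 0.27), with no overlap between these or with young liver (0.14 ± 0.24), and lowest in lung and aged WAT, which overlapped. Tgfb2 was highest in lung (1.98 ± 0.11 young, 1.31 ± 0.70 aged). Aged kidney (0.86 ± 0.31) overlapped with aged lung, while young kidney (-2.27 ± 0.41) overlapped with liver at the bottom of the order. Tgfb1 ran from aged WAT (1.72 ± 0.56) and aged lung (1.45 ± 0.19), which overlapped, down to young liver (-0.75 ± 0.18) and young kidney (-1.23 ± 0.10), which did not.
Inhba was highest in liver at both ages (0.87 ± 1.29 aged, 0.31 ± 0.52 young) and lowest in young kidney (-5.31 ± 0.35), which was the only group apart at the low end. Bmp2 was also highest in liver (1.71 ± 0.22 young, 1.67 ± 0.20 aged) and lowest in young kidney (-2.54 ± 0.27). Bmp4 was highest in kidney (4.17 ± 0.03 aged, 4.01 ± 0.07 young), followed by young lung (3.75 ± 0.20), whose highest mouse just reached the lowest young kidney, then aged lung, WAT and liver. Bmp6 was highest in lung (2.89 ± 0.32 aged, 2.77 ± 0.05 young), with kidney next, then WAT and liver. Nog was highest in young liver (-0.51 ± 0.18) and young kidney (-0.63 ± 0.15), which overlapped, and lowest in lung.

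Of 19061 gene symbols compared with Grem1 over the 24 arrays, the 5 with the highest Pearson correlation were Frmd3 (r = 0.958), Birc2 (0.912), Nlrp10 (0.889), Galnt17 (0.859) and Dnm3os (0.842). The arrays share tissues and slides, and the aged kidneys are far from all others for Grem1, so these are descriptions of 1 pattern. Grem1 was not well above background in any liver or young kidney, nor in some aged lungs and young WAT. These correlations thus rest in part on background signals. In kidney the same genes differed between ages by 3.79 (Frmd3), 1.11 (Birc2), 3.66 (Nlrp10), 4.99 (Galnt17) and 2.86 (Dnm3os). Dnm3os is a non-coding RNA that hosts microRNAs. In WAT they differed by between 0.03 (Birc2) and 1.46 (Nlrp10), less than Grem1 did.

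The rest of the pathway was followed in 106 other genes, and those called were 66 of 94 tested in kidney (48 higher, 18 lower), 30 of 90 in liver (24 higher, 6 lower), 10 of 97 in lung (3 higher, 7 lower) and 1 of 91 in WAT. As shares these were 70.2%, 33.3%, 10.3% and 1.1%, beside 63.1% of all genes in kidney (20.6% higher and 42.6% lower) and the 27.5%, 5.61% and 2.59% given above for the others. The lists were chosen with earlier results of these data known, so their counts and shares are descriptions. Their median difference was 0.36 in kidney and 0.29 in liver, where the medians over all genes were -0.23 and -0.20. It was -0.18 in lung and 0.04 in WAT, beside -0.08 and -0.05 over all genes. On the spike-in scale all 48 higher calls in kidney held and 12 of the 18 lower ones were lost, leaving a split of 59 higher of 65 called. In liver that scale left 19 calls, 17 of them higher.
In lung the counts depended on single mice, and leaving out any 1 mouse left between 0 and 12 calls. There were 0 without young lung 1 or young lung 2, 1 without young lung 3 and 5 without aged lung 3. The loss was not particular to these genes. Over all genes tested in lung, 825 were called higher and 875 lower. Without young lung 1 these counts were 1 and 1, and without young lung 2 they were 16 and 8. Without young lung 3 they were 142 and 76, and without aged lung 3 they were 561 and 506. In liver the lowest counts came without young liver 2 (10 calls) and young liver 1 (14 calls). Over all genes tested in liver, 2928 were called higher and 4749 lower. Without young liver 2 these counts were 1497 and 996, and without young liver 1 they were 1767 and 1207.

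TGF-beta target genes were higher together in aged kidney and, in part, in aged liver. In kidney all 10 were called higher, with a median of 2.97, and in liver 6 of 10, with a median of 1.2, where 20.6% and 10.5% of all genes were called higher. Because the list was chosen with earlier results of these data known, these counts are descriptions.
Ccn2, the matricellular connective tissue growth factor, was at 1.25, 2.72 and 2.43 in young and at 4.31, 4.53 and 4.82 in aged livers, with no overlap, and rose by 2.42 (SE 0.38, adjusted p = 0.00802). In kidney it rose by 2.23 (SE 0.24). Col1a1, a chain of type I collagen, rose by 1.27 in liver and 3.61 in kidney, and Tgfbi by 1.92 and 3.09. The liver call of Col1a1 held in 8 of 15 alternatives and that of Tgfbi in 15 of 15. Postn rose by 1.52 in liver and 1.54 in kidney. Fn1 (fibronectin) rose by 3.29 in kidney, and its liver difference of 0.55 did not pass the test. Several of these genes are expressed mainly by fibroblasts, whose markers moved the same way in both organs, and the part of that in their rise was not tested.
In lung, 1 of the 10 was called, Postn, which fell by 1.14 (SE 0.22, adjusted p = 0.043), a call that held in 4 of 15 alternatives. Col1a1 was below the young range in every aged lung but was not called (-1.93, adjusted p = 0.075). The 5 fibroblast markers summed to 64.6 to 86.3 in young and 34.8 to 48.1 in aged lungs (1 called lower). In WAT none of the 10 was called by limma or by the methods' t-test, which called 1 higher and 0 lower over all genes there.

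BMP target genes moved in both directions. In liver Id1, an inhibitor of basic helix-loop-helix factors, rose by 0.82 (SE 0.22, adjusted p = 0.0337) and Msx2, a homeobox gene, fell by 0.91 (SE 0.16, adjusted p = 0.0108), and these were the 2 called of 8. Hamp, which encodes the iron hormone hepcidin and responds to BMP6, differed by -0.96 (SE 0.62, adjusted p = 0.269) in liver. In kidney 5 of 7 were called (71.4%, beside 63.1% of all genes): Id3 rose by 0.77 and Atoh8 by 1.13, while Id4 fell by 1.42, Id2 by 0.53 and Msx2 by 0.76. On the spike-in scale neither liver gene was called (Id1 adjusted p = 0.119, Msx2 adjusted p = 0.104), and Id2 and Msx2 were no longer called in kidney. On that scale Id1 (0.56, adjusted p = 0.0496) and Msx1 (0.86, adjusted p = 0.013) were called higher in kidney. Id3 and Atoh8 stayed higher there, and Id4 was the only lower call. Over all alternatives the liver call held in 8 of 15 for Id1 and in 12 of 15 for Msx2. Id1 differed by 0.15 (SE 0.22) in kidney. None of the 8 was called in lung, nor any of the 7 tested in WAT, where Id2 came nearest (0.89, adjusted p = 0.0587).

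**Figure D3:**
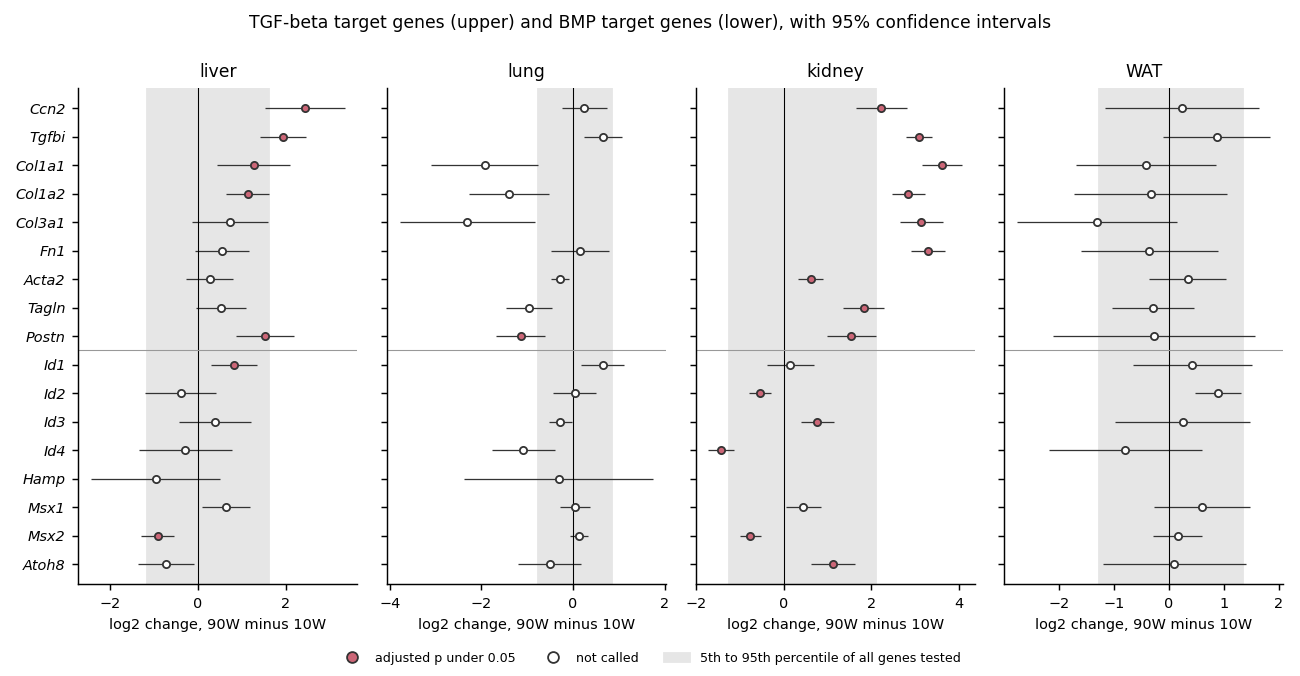
Log2 difference between ages (horizontal axis, 90W minus 10W, a scale of its own in each panel) of 9 of the 10 TGF-beta target genes, above the line, and 8 BMP target genes, below it, with 95% confidence intervals from limma over 3 mice per age; filled points are called and the grey band spans the 5th to 95th percentile of all genes tested. All 9 TGF-beta targets plotted are called higher in kidney and 5 in liver, while the BMP targets lie on both sides of 0.

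Among other ligands, Gdf15, a stress-induced member of the family, was the 1 pathway gene called in WAT. It was at 0.47, -0.76 and -1.99 in young and at 4.76, 3.58 and 3.36 in aged WAT, and rose by 4.66 (SE 0.69, adjusted p = 0.0309). The call was lost when any 1 WAT mouse but young WAT 1 was left out. In liver Gdf15 rose by 3.05, Gdf10 by 1.08 and Bmp5 by 0.78, calls that held in 11, 9 and 11 of 15 alternatives. The Bmp5 call was lost on the spike-in scale (adjusted p = 0.0973). In kidney Tgfb3, the remaining TGF-beta isoform, rose by 2.55, Inhbb, the other activin beta subunit, by 2.22 and Lefty1, an inhibitor of Nodal, by 2.12. In lung Inhbb rose by 0.68 and Bmp5 fell by 0.79, calls that held in 3 and 7 of 15 alternatives. Gdf6 was not well above background in young lungs and was at least 1.58-fold higher in aged lungs.

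Genes for antagonists other than Grem1 and Nog went several ways. In kidney 11 of 15 (73.3%) were called, 7 higher and 4 lower, beside 63.1% of all genes. Nbl1, a member of the same cysteine-knot group as Grem1, rose by 2.55 there (SE 0.19). Bmper, which binds BMPs outside the cell, was at least 5.47-fold higher in aged kidneys, being not well above background in young ones. Over the alternatives its log2 difference in kidney was as low as 1.27, which is less than that fold. In liver Bmper rose by 4.0 (SE 0.89, adjusted p = 0.0208), from -3.70, -3.83 and -3.57 to -1.14, 2.60 and -0.55, so the aged livers spread widely. Chrdl2 rose by 1.05 and Vwc2 fell by 0.93 in liver, calls that held in 12 and 8 of 15 alternatives. The Vwc2 call was lost on the spike-in scale (adjusted p = 0.126). In lung Twsg1 fell by 0.79 and Nbl1 by 0.54, calls that held in 9 and 5 of 15 alternatives. In WAT 0 of 14 were called by limma. Follistatin (Fst), the activin-binding protein, was called in no tissue, with differences from -0.09 in liver to 0.64 in WAT, and neither was the pseudoreceptor Bambi, with 0.35 in kidney (adjusted p = 0.0572), although on the spike-in scale it was called there (0.76, adjusted p = 0.0145).

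Among genes listed for storage or release of latent TGF-beta, 7 of 12 were called higher and 3 lower in kidney. There 20.6% of all genes were called higher and 42.6% lower. Ltbp2, a matrix protein gene listed by its latent TGF-beta binding protein family, rose by 7.66 (SE 0.22) in kidney. It went from -4.27, -4.40 and -4.45 to 3.57, 3.49 and 2.78. The list was chosen with earlier results of these data known, so this rise is a description. Its bearing on latent TGF-beta was not tested. Bmp1, among the genes lower in kidney, ran from -1.42 to 0.85 over the alternatives and was called in all 15. The direction of its kidney call thus depends on the setting. In liver 5 of 10 were higher and 0 lower, beside 10.5% and 17% of all genes. Ltbp1 rose by 1.48 there and Thbs1, thrombospondin 1, an activator of latent TGF-beta, by 3.25. Nrros, which anchors latent TGF-beta on macrophages and related cells, rose by 1.93 in liver, 0.85 in lung and 2.41 in kidney, and in liver and kidney all 5 macrophage markers were higher too. The lung call of Nrros held in 4 of 15 alternatives, and its WAT value did not pass the test. Lrrc32, which anchors it on regulatory T cells and other cells, rose by 1.30 in liver and 1.33 in kidney.

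**Figure D4:**
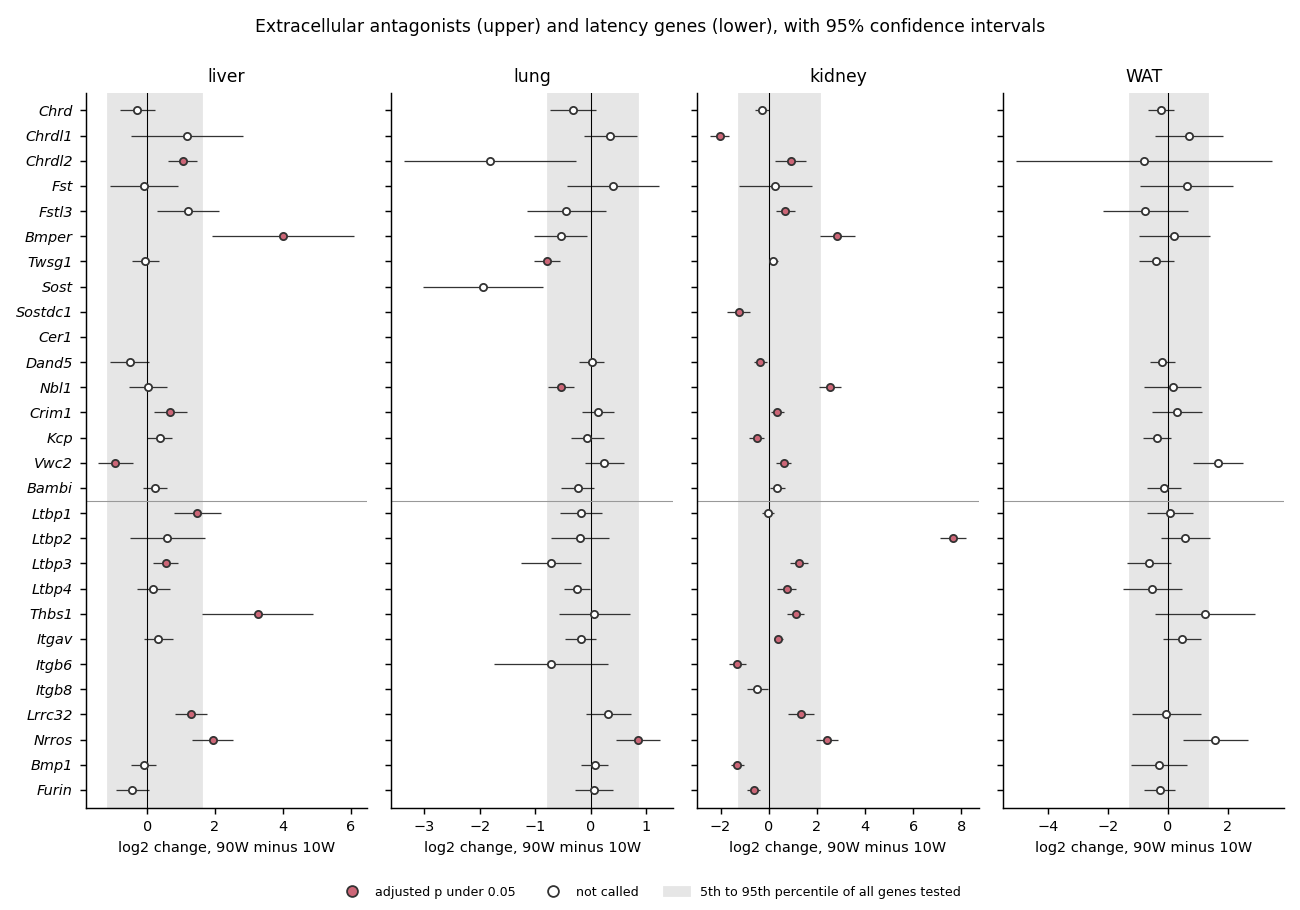
Log2 difference between ages (horizontal axis, 90W minus 10W, a scale of its own in each panel) of 16 extracellular antagonists, above the line, and of genes for storage and release of latent TGF-beta, below it, with 95% confidence intervals from limma over 3 mice per age; filled points are called, the grey band spans the 5th to 95th percentile of all genes tested, and empty rows were not tested. Ltbp2, listed by its family, in kidney (7.66) and Bmper in liver (4.0) lie farthest from 0.

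Of the receptors and co-receptors, 6 of 17 were called in liver, 10 of 17 in kidney, 2 of 19 in lung and 0 of 18 in WAT by limma. These are 35.3%, 58.8%, 10.5% and 0%, beside 27.5%, 63.1%, 5.61% and 2.59% of all genes. Acvrl1 (ALK1), a type I receptor of endothelium, rose by 1.39 in liver (SE 0.18, adjusted p = 0.00434) and by 1.03 in kidney, and its co-receptor endoglin (Eng) by 0.91 in kidney. Tgfbr2 rose by 0.64 in liver and 1.15 in kidney, and Tgfbr1 by 0.66 in kidney. The liver call of Tgfbr2 held in 6 of 15 alternatives and was lost on the spike-in scale (adjusted p = 0.175). The BMP receptors Bmpr1a and Bmpr2 were not called by limma on the 75th percentile scale in any tissue, but on the spike-in scale both were called in kidney (0.54, adjusted p = 0.0419, and 0.57, adjusted p = 0.0203). Rgma, a BMP co-receptor, fell by 1.5 in liver and 1.40 in kidney, and Amhr2 fell by 1.71 in liver. In lung Acvr2a, an activin type II receptor, fell by 0.55, a call that held in 2 of 15 alternatives. Acvr1c (ALK7), a receptor known from adipocytes, was not well above background in any aged lung and was at least 5.24-fold lower than in young mice. Over the alternatives its log2 difference in lung was as small as -2.16, which is less than that fold. The 4 adipocyte markers summed to 20.8 to 30.8 in young and 5.57 to 10.1 in aged lungs, with 2 called lower, and their part in the Acvr1c value was not tested.
Of the 15 Smads and Smad regulators, 1 was called in liver, Skil (0.92), the co-repressor SnoN, and 0 in lung and WAT by limma, while 7 were higher and 1 lower in kidney (53.3% called, beside 63.1% of all genes), among them Pmepa1 (1.13), Smurf1 (0.73) and Tgif1 (0.73). The liver call of Skil held in 6 of 15 alternatives and was lost on the spike-in scale (adjusted p = 0.0578). The inhibitory Smads were called in no tissue, although Smad7 was called in liver in 3 of 15 alternatives. Smad7 differed by 0.71 in liver (adjusted p = 0.0565) and 0.07 in kidney, and Smad6 by 0.75 in lung (adjusted p = 0.0906).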

How the data were processed

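The arrays held 62976 spots each, scanned in 1 colour (Cy3). Per the labels and file headers, the deposited intensity values are processed signals that the authors made with Agilent Feature Extraction 11.0.1.1, already background-corrected and not scaled between arrays. Outlier-flagged spots were left out, spots of a probe were averaged on the log2 scale, and the array's 75th percentile was subtracted. Of 56605 probes that are not controls, 32994 (58.3%) matched a mouse RefSeq symbol through their accession, and the brightest probe stood for its gene. Ages were compared within each tissue with limma 3.58.1 in R 4.3.3, tested on simulated data first. "At least" folds set a group's mean against the dimmest probes well above background on the other group's arrays. They hold for the 75th percentile scale, and other settings gave smaller differences for some of these genes.

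The 9 genes and the gene lists were chosen with earlier results of these data known. Genes named beside the 9 are, per list and tissue, up to the 3 largest changes among called genes without overlap, 16 fixed genes, and the 5 symbols most like Grem1. Alternatives were normexp with an offset of 16 (on median spot and background signals), quantile normalization, spike-in scaling, median centring, no filter, averaging the probes of each gene, a shared fit of all 24 arrays, a replicate block, the methods' t-test and leaving out each mouse. Nothing says more of how replicates were taken than their numbers, so p-values measure the spread between these samples. The number of arrays limits the precision. Some results on single genes of the lists are not reported here, and the list counts include those genes.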

Additional observations from a re-analysis of the deposited data

Results flagged for a closer look

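The age effects of 2 genes differed between tissues by the test of the difference itself. For Grem1 the effect in lung minus that in WAT was -4.05 (adjusted p = 0.0095): the lung difference was -1.14 with overlapping ages and the WAT difference 2.91 without overlap, and neither was called on its own. That adjusted p uses a spread shared with liver and young kidney, where Grem1 was not above background. For Bmp7 the effect in liver minus that in lung was -1.59 (adjusted p = 0.0444), and that call was lost in 13 of 23 alternatives, spike-in scaling (adjusted p = 0.14) among them.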

How the results depend on the processing

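Of the 9 genes, liver had 2 calls as reported, 1 with quantile normalization, 1 with spike-in scaling, 1 with the methods' t-test and between 1 and 2 when 1 mouse was left out. Lung had 0, and between 0 and 1 without 1 mouse. WAT had 0, and 0 without any 1 mouse, but 3 with all 24 arrays in 1 fit. That fit called 3263 higher and 3127 lower over all genes tested in WAT. Differences between tissues numbered 2 as reported, 1 with spike-in scaling and between 1 and 4 without 1 mouse.

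Of the 106 pathway genes, liver had 30 calls, 19 with spike-in scaling, 14 with the t-test and 10 to 25 without 1 mouse. Lung had 10, 6 with spike-in scaling, 2 with no filter, 0 with the t-test and 0 to 12 without 1 mouse. WAT had 1, 2 with normexp, 0 with no filter, 2 with the mean of probes, 16 with all arrays in 1 fit, 0 with the t-test and 0 to 1 without 1 mouse. Kidney had 66, and from 47 to 72 in every alternative. Over all genes the t-test called 99 higher and 132 lower in lung, and 1 higher and 0 lower in WAT. With all arrays in 1 fit, 3263 genes were called higher and 3127 lower in WAT.

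Deviations of mice with the same number correlated between -0.17 and 0.18 and not all above 0.1, so the numbers were not taken to pair the samples. With the replicate number as a block, liver had 0 calls among the 9 genes and 6 among the pathway genes. Lung had 0 pathway calls, kidney had 63 and WAT 1. Over all genes the block called 1 higher and 0 lower in lung, and 1064 higher and 627 lower in liver. In lung and WAT the block left 0 of the 9 genes called. In liver only the numbers 1 and 2 occur at both ages, so the blocked age difference rests on those mice. The fewer liver calls are thus no measure of pairing.

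Small differences that had not been called changed sign. In liver Bmp2 was 0.022 with quantile normalization and 0.034 with spike-in scaling, and without 1 mouse it ran from -0.15 to 0.10, Bmp6 from -0.11 to 0.34 and Inhba from -0.12 to 1.16. In lung, without 1 mouse, Bmp7 ran from -0.0083 to 0.24, Bmp6 from -0.047 to 0.26, Nog from -0.12 to 0.31 and Inhba from -0.65 to 0.10. In WAT Bmp4 ran from -0.57 to 0.23 and Inhba from -0.034 to 0.98. The cause was not tested.

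The number of arrays limits what can be called, with 3 mice per group. Genes near background, such as Grem1 outside aged kidney and WAT, have differences that depend on the background correction.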
